A study of Homo sapiens with 9 samples.

Results

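The genes described here are the long intergenic noncoding genes outside chromosome 19 in the 9 Chrom-seq libraries from HEK293T cells, an established line of human embryonic kidney origin. They were taken from the count table as the genes of type lincRNA on chromosomes 1 to 22 except 19, without MALAT1, NEAT1, BCYRN1, MEG3, H19, GAS5, ZFAS1 and the small nucleolar RNA host genes whose names start with SNHG. These rules left 6659 of the 57820 genes in the table and of its 7114 lincRNA genes. Chromosome 19 took away 265 lincRNA genes, chromosomes X, Y and M 182, and the names 8. The rule itself uses no measured value, though it was set with earlier results of these data known. All 9 libraries came from cells that expressed SunTag (GCN4) epitopes together with APEX2, an engineered peroxidase, for 48 hours. In the 3 CBX1 libraries the epitopes were joined to the chromodomain of CBX1, which binds trimethylated lysine 9 of histone H3 (H3K9me3). In the 3 CBX1_W42A libraries that chromodomain carried the amino acid change W42A, and in the 3 control libraries there was no reader. The sample descriptions of all 9 libraries, with and without a reader, also carry the letters NLS. All cells, controls included, were given biotin-aniline (500 μM, 30 min) and then H2O2 (1 mM, 1 min), and biotinylated RNA was collected on streptavidin beads, so each library reports RNA labeled by APEX2. The sources used here do not say whether the groups were prepared together, and a batch that followed the groups cannot be told apart from the reader. The reader constructs were driven by the cytomegalovirus promoter in transfected cells of a single line, and the sources used here do not say whether replicates were separate cultures, so p-values measure only the spread between these libraries.

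A long intergenic noncoding gene is transcribed, spliced and often polyadenylated like a protein-coding gene, but it lies between coding genes and has no known protein. Most such RNAs are scarce and many stay in the nucleus close to where they are made. H3K9me3 is the mark of constitutive heterochromatin, which covers gene-poor and repeat-rich DNA, and proteins of the CBX1 family bind it through an aromatic cage in the chromodomain.

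Promoter windows of 4 of these genes are shown first, because the genes that were higher with CBX1 included both CG-rich and CG-poor starts. Each window runs from 250 bases before to 50 bases after the annotated start, on the gene's own strand in GRCh37, with each CG, a site that can carry DNA methylation, in capitals. GMDS-AS1 (chr6:2245732-2246031, plus strand) and RP11-844P9.2 (chr5:175626249-175626548, minus strand) held 41 and 31 CG. AL035610.2 (chr21:29600937-29601236, minus strand) held 2 and RP1-167G20.1 (chr5:16440141-16440440, minus strand) held 0.
GMDS-AS1: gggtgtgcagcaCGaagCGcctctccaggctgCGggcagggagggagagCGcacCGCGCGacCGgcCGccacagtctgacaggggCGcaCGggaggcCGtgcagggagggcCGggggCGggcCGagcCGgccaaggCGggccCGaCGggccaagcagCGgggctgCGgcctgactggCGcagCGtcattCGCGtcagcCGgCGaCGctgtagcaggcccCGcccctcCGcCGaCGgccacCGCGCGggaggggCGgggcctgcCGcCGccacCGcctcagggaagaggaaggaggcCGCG
RP11-844P9.2: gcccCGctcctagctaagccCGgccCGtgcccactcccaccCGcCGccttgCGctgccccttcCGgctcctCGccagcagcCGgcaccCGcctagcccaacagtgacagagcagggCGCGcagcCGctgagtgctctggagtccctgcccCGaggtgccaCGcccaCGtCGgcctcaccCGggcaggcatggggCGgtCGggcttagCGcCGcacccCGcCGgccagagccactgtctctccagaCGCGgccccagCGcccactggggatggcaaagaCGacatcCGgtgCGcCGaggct
AL035610.2: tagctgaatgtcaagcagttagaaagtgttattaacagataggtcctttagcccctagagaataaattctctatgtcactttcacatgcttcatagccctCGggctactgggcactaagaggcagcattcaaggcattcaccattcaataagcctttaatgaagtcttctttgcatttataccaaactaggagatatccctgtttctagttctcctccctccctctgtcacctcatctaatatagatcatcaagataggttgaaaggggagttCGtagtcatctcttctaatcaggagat
RP1-167G20.1: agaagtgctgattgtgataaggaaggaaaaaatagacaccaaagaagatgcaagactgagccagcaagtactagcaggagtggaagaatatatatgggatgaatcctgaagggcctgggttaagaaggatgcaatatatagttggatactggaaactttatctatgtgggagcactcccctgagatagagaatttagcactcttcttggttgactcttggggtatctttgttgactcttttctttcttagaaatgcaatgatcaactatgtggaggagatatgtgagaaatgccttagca

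Of the windows of all 6659 genes, 91.4% held at least 1 CG and 13.6% held 15 or more, with a median of 3 per window. Among genes with enough counts to be tested against the control with CBX1, 15 or more were held by 35.6% of 1172 long intergenic genes and 67.3% of 12851 protein-coding genes of the same chromosomes. A CG reads the same on both strands, so 1 strand was searched. The presence of CG in a window is a description of the letters and says nothing on methylation in these cells.

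The study also designed primers for several of these genes, and the pairs below locate the amplified stretch of 2 long ones among the results. In GMDS-AS1 both primers lie in an annotated exon of the plus strand, the forward one at chr6:2398843-2398862 and the reverse one at chr6:2398955-2398974 of GRCh37. In RP11-222A11.1 they lie in an exon at chr10:67345249-67345268 and chr10:67345468-67345487. Capitals are not used in these.
GMDS-AS1 forward: actgcaagaccagagtgacg
GMDS-AS1 reverse: tcgtatctgcgagacctgga
RP11-222A11.1 forward: agaccaactccgtttcccga
RP11-222A11.1 reverse: ttcaagggcccagccttatt

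The counts cover the whole span of a gene from start to end, introns included. Spans ran from 0.087 to 1375 kb with a median of 5.76 kb and quartiles of 1.78 and 21.6 kb, and 3374 genes were on the plus strand. At least 1 count in at least 1 library was found for 3483 of the 6659 genes, and 3176 had none in any library. Of these, 346 lie within other genes of their strand, where reads were counted for no gene. Counts were present in every library for 1049 genes, and 376 had 10 or more in each. The 381048 counts of all members were unevenly spread, with 18.3% in 10 genes and 53.2% in 100. Most values below therefore rest on few counts, with 8379542 to 11082852 counts of all genes in a library. The kidney and neural markers of the line were present in every library, from at least 36 counts for PAX2 to at least 3755 for VIM. Of the blood markers, CD3E had 0 counts in all 9 libraries and PTPRC at most 2. The liver marker ALB had 4 to 25 counts in a library, and of the muscle markers DES had 4 to 10 and MYH7 0 to 3. No 2 replicates were identical, and they differed by more than counting noise (chi-square over degrees of freedom 4.95 to 12.4).

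As a group these genes took a larger part of the libraries with CBX1 than without a reader. Their share of all counts was 0.354%, 0.354% and 0.385% in the 3 control libraries, and 0.512%, 0.514% and 0.521% in the 3 CBX1 libraries. With CBX1_W42A it was 0.445%, 0.471% and 0.459%, so the 3 groups did not overlap and the mutant lay between the others. The number of these genes with at least 1 count was 1766 to 1800 in the control, 2165 to 2258 with CBX1 and 1949 to 2147 with CBX1_W42A. Normalized values are counts scaled to the TMM-adjusted library size (CPM), a relative measure within each library. In bulk libraries like these, labeling in more cells and more labeled RNA per cell cannot be told apart.

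On that scale the summed level was 3733, 3754 and 3913 CPM in the control, 4949, 4958 and 5023 CPM with CBX1, and 4481, 4614 and 4542 CPM with CBX1_W42A. The means were 3800 ± 98.3 CPM, 4977 ± 40.4 CPM and 4546 ± 66.2 CPM (SD, n = 3 each). CBX1 stood at 1.31 times and CBX1_W42A at 1.20 times the control mean, and CBX1 at 1.09 times the mean of its mutant. Each pair of groups was fully separated, with an exact two-sided permutation p of 0.1 in all 3 cases, which is the smallest that 3 libraries against 3 can give. Both ratios to the control use the same control libraries. With the library size alone as the scale the CBX1 ratio was 1.42, and without the 10 genes with the most counts it was 1.36.

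Other gene types of the same chromosomes were summed in the same way. Antisense genes had ratios of 1.30, 1.22 and 1.07 in these 3 comparisons, pseudogenes 1.09, 1.06 and 1.03, and protein-coding genes 0.90, 0.93 and 0.967. Within a library, the long intergenic genes held 0.421%, 0.419% and 0.46% of the protein-coding level in the control and 0.625%, 0.629% and 0.637% with CBX1, again without overlap (exact two-sided permutation p = 0.1). Their level relative to antisense genes was 0.594 ± 0.00307 in the control and 0.597 ± 0.00541 with CBX1 (SD, n = 3 each). The libraries of the 2 groups overlapped in this value (exact two-sided permutation p = 0.4), so no difference between the long intergenic and antisense genes was detectable with 3 libraries a group.

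**Figure D1:**
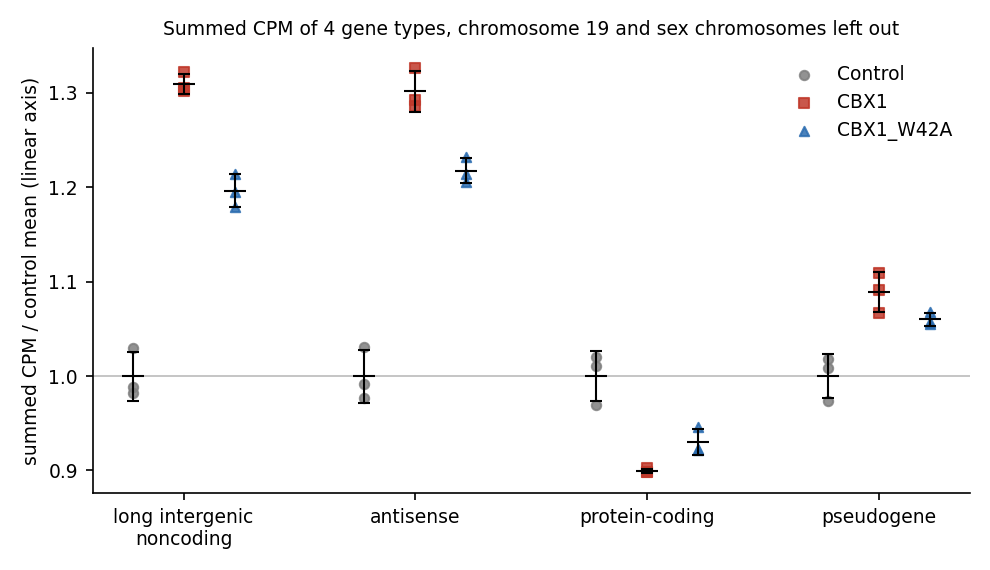
Summed CPM in each library divided by the control mean, for 4 gene types outside chromosome 19 and the sex chromosomes, with 3 libraries per group as points and the mean and SD in black. Long intergenic noncoding genes and antisense genes lie near 1.3 with CBX1 and near 1.2 with CBX1_W42A, and protein-coding genes lie below 1.

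The ratio to the control was higher in long than in short genes, though not in a strict order of span. The 206 genes over 200 kb summed to 171.5, 206.7 and 209.9 CPM in the control, 345.0, 317.0 and 341.0 CPM with CBX1, and 251.7, 292.8 and 248.3 CPM with CBX1_W42A. All CBX1 libraries lay above all others, and the ratio of CBX1 to control was 1.71. The 1809 genes under 2 kb summed to 451.9 ± 19 CPM in the control and 559.0 ± 21.3 CPM with CBX1 (SD, n = 3 each), a ratio of 1.24. Between them the ratio was 1.16 for 2 to 10 kb, 1.43 for 10 to 50 kb and 1.43 for 50 to 200 kb. The 2 to 10 kb class includes LINC00657 (5.339 kb), which was lower with CBX1. It held 212 of the 1572 CPM of that class in the control and 179 of 1827 CPM with CBX1. These sums cover every member of a class, with no filter on counts.

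Within each library the level of the genes over 200 kb relative to those under 2 kb was 0.376, 0.48 and 0.448 in the control and 0.632, 0.543 and 0.623 with CBX1, without overlap (exact two-sided permutation p = 0.1). With CBX1_W42A this value was 0.485, 0.554 and 0.436, which overlapped both the control (exact two-sided permutation p = 0.4) and CBX1 (exact two-sided permutation p = 0.2). The level of genes over 10 kb relative to those under 10 kb was 0.818, 0.893 and 0.922 in the control. It was 1.11, 1.03 and 1.11 with CBX1 and 0.986, 1.06 and 1.0 with CBX1_W42A. Here both readers lay above the control (exact two-sided permutation p = 0.1 each) and overlapped one another (exact two-sided permutation p = 0.2). For the mutant against the control the ratios by rising span were 1.19, 1.09, 1.29, 1.26 and 1.35, and for CBX1 against the mutant 1.04, 1.06, 1.10, 1.13 and 1.27. Protein-coding genes showed no such order, with CBX1 ratios of 1.01, 0.948, 0.89, 0.881 and 0.946 in the same classes.

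Averaged over their span, the extra counts of the longest genes were few per kb, and where in a gene they lie was not examined. Their 70449.9 kb of span held 0.00278 ± 0.000302 CPM per kb in the control and 0.00475 ± 0.000215 CPM per kb with CBX1 (SD, n = 3 each), a gain of 0.00196 CPM per kb. Olfactory receptor genes, whose activity is largely limited to the nose, were read beside this as a level of stray reads. The 322 such genes that share no span on their strand, 389.6 kb in all, held 20 counts in the control and 43 with CBX1, or 0.0018 ± 0.00157 and 0.00395 ± 0.00136 CPM per kb, a gain of 0.00215. Only 20 of those 322 genes had a count in any library, and their control and CBX1 libraries overlapped. The gain per kb of the longest class as a whole was no larger than this difference, which rests on few counts. The 28 genes over 200 kb that were called higher with CBX1 in the test below, and so chosen by this contrast, gained 0.00706 CPM per kb, and the other 178 gained 0.00118. The gain was 0.00362 CPM per kb for 50 to 200 kb, 0.0108 for 10 to 50 kb, 0.0237 for 2 to 10 kb and 0.0571 under 2 kb. Of all 188 members called higher with CBX1 in that test, also chosen by this contrast, 177 gained more per kb than the olfactory receptor level with CBX1. The part of stray reads in the span order was not tested.

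**Figure D2:**
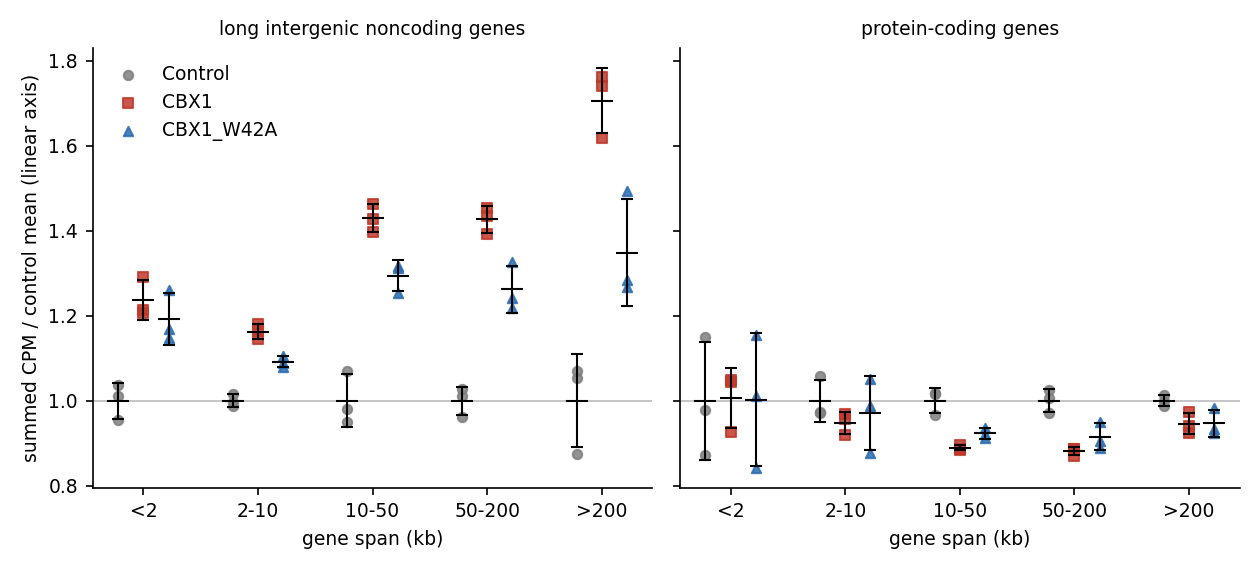
Summed CPM in each library divided by the control mean, by gene span in kb, for long intergenic noncoding genes (left) and protein-coding genes (right), with 3 libraries per group as points and the mean and SD in black. The ratio with CBX1 is 1.24 under 2 kb and 1.71 over 200 kb on the left, and between 0.881 and 1.01 on the right.

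Every chromosome but 20 had a higher summed level in all 3 CBX1 libraries than in all 3 control libraries. The ratio of the means ran from 1.23 on chromosome 9 to 1.65 on chromosome 21. On chromosome 21, 145 genes summed to 39.94 ± 5.77 CPM in the control, 65.79 ± 1.06 CPM with CBX1 and 49.9 ± 3.41 CPM with CBX1_W42A (SD, n = 3 each). Chromosome 13 had a ratio of 1.62 on the lowest level, 23.3 ± 2.91 CPM in the control. On chromosomes 10, 15 and 18 the ratio was 1.5.

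On chromosome 20, 75.7% of the member counts belong to LINC00657. Its 153 genes summed to 262.8 ± 17.9 CPM in the control and 254.7 ± 9.47 CPM with CBX1, a ratio of 0.969 with overlapping libraries. Without LINC00657, a choice made after the values were seen, the sums were 47.24, 58.66 and 45.26 CPM in the control and 85.23, 66.44 and 74.6 CPM with CBX1, a ratio of 1.5. For CBX1_W42A the chromosome ratios to the control ran from 0.961 on chromosome 20 to 1.47 on chromosome 13. On chromosomes 18 and 21 the CBX1 level exceeded the CBX1_W42A level by factors of 1.26 and 1.32, with all libraries separated, whereas on chromosome 22 the factor was 0.994.

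**Figure D3:**
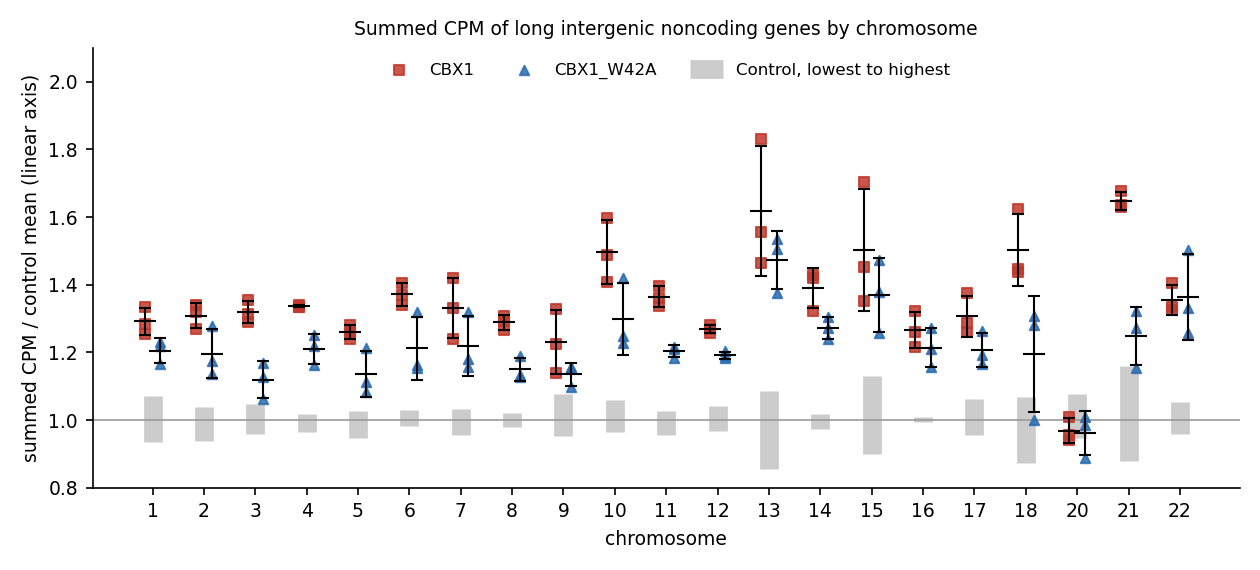
Summed CPM of long intergenic noncoding genes on each chromosome, divided by the control mean of that chromosome, with CBX1 and CBX1_W42A libraries as points, their mean and SD in black and the range of the control libraries as a grey bar. CBX1 libraries lie above the control range on every chromosome shown except 20.

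Single genes were then compared by edgeR's quasi-likelihood test over all genes with more than 18 counts in the 6 libraries of a comparison, and a gene was called where it differed by log2 0.75 or more with a Benjamini-Hochberg adjusted p below 0.05. Against the control, 188 of the 1172 long intergenic genes tested were called higher with CBX1 (16.0%), where the same rule called 7.06% of all 18837 genes tested. Only 2 were called lower, against 0.340% of all genes. The other 982 passed the filter without a call and 5487 of the 6659 were too scarce to test. A scarce gene can pass that filter through the CBX1 libraries alone, so this share describes the genes tested and not all members. Of all 3216 tested genes that newer annotation lists as long noncoding RNA, members included, 16.2% were called higher. The share was 17.7% of the 956 members among them, so the excess over all genes was not particular to the long intergenic genes. Every CBX1 library lay above every control library for 389 of the 1172 genes and below for 34, compared with 17.6% and 20.3% of all genes. The number called higher was 124 without CBX1 replicate 3 and 125 without CBX1 replicate 1. It was 80 of 383 tested where 10 counts were asked of every library, beside 838 of 14345 genes. It was 18 of 1172 when the null hypothesis was a change of up to log2 0.75, beside 170 of 18837 genes. DESeq2 called 145 higher, and 5.63% of all genes.

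Most called genes were scarce. In the 188 genes the median level was 0.893 CPM in the control, 2.96 CPM with CBX1 and 1.92 CPM with CBX1_W42A. The median log2 fold change was 1.68, between 0.757 and 4.70. The share called rose and then fell with abundance, from 8.73% below 0.5 CPM (20 of 229) to 26.9% between 2 and 5 CPM (59 of 219) and 10.8% above 20 CPM (4 of 37). All genes tested in the same abundance classes gave 6.67%, 20.1% and 0.778%. The median log2 fold change of the tested long intergenic genes was 0.99 below 0.5 CPM and 0.27 above 20 CPM, beside 0.77 and -0.11 for all genes.

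**Figure D4:**
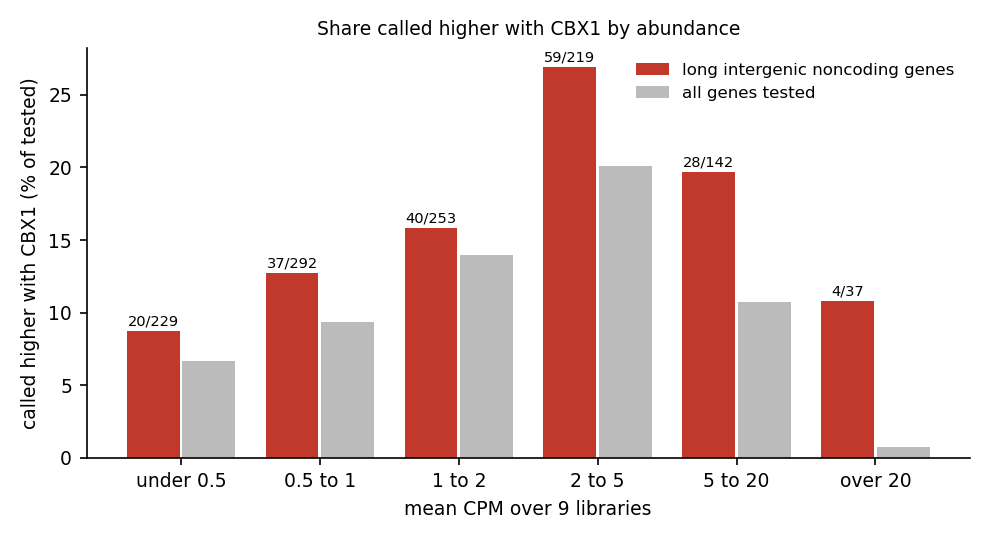
Percentage of tested genes called higher with CBX1 against the control, by mean CPM over the 9 libraries, for long intergenic noncoding genes (red, with called and tested numbers) and all genes tested (grey). Both sets peak between 2 and 5 CPM, at 26.9% and 20.1%.

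By span, the share called was 7.20% of 236 genes under 2 kb, 8.70% of 368 from 2 to 10 kb, 21.3% of 334 from 10 to 50 kb, 25% of 160 from 50 to 200 kb and 37.8% of 74 over 200 kb. All genes of these classes gave 6.56%, 5.89%, 7.38%, 7.23% and 8.32%. The called genes had a median span of 29.4 kb, between 0.407 and 647.9 kb, and the tested ones 9.11 kb. Calls were found on all 21 chromosomes, from 2 of 36 tested genes on chromosome 22 (5.56%, beside 7.74% of all genes tested there) to 8 of 22 on chromosome 21 (36.4%, beside 9.63%).

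The 12 leading genes, those called higher with the smallest adjusted p and groups that did not overlap, are described next. RP1-167G20.1 (LINC02150 in newer annotation) spans 66.72 kb on chromosome 5 and has no CG in its promoter window. It had 7, 6 and 10 counts in the control, 61, 47 and 54 with CBX1 and 27, 23 and 19 with CBX1_W42A. The 3 groups did not overlap in CPM, at 0.858 ± 0.308, 5.74 ± 0.902 and 2.30 ± 0.248 CPM (SD, n = 3 each). It was higher with CBX1 than in the control by log2 2.77 (standard error 0.34, adjusted p = 6.7e-05) and than with CBX1_W42A by log2 1.31 (standard error 0.27, adjusted p = 0.0117). The second call was lost without CBX1 replicate 1 (adjusted p = 0.0899).

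RP11-844P9.2, 56.21 kb on the same chromosome, had 4.38, 3.50 and 4.73 CPM in the control, 13.2, 11.5 and 11.8 CPM with CBX1 and 6.91, 9.26 and 6.56 CPM with CBX1_W42A. The groups again did not overlap, and the log2 fold change with CBX1 was 1.56 (standard error 0.19, adjusted p = 7.8e-05). RP11-883A18.3, 10.21 kb on chromosome 18, had 5, 5 and 2 counts in the control and 36, 45 and 30 with CBX1, which is log2 3.16 (standard error 0.43, adjusted p = 0.000163). With CBX1_W42A it had 21, 29 and 18 counts and was also called against the control, by log2 2.35 (standard error 0.50, adjusted p = 0.0213). That second call was lost without control replicate 1 or 3 or CBX1_W42A replicate 2.

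RAB30-AS1 starts 0.143 kb from the coding gene RAB30, a small GTPase gene, on the opposite strand. It was one of the most abundant called genes, with 23.6, 29.3 and 26.3 CPM in the control, 59.2, 45.9 and 44.6 CPM with CBX1 and 39.0, 37.7 and 29.8 CPM with CBX1_W42A. Its log2 fold change with CBX1 was 0.95 (standard error 0.13, adjusted p = 0.000165). GMDS-AS1 starts 0.056 kb from GMDS, which encodes an enzyme of GDP-fucose synthesis, and spans 236.3 kb. It had 15.5, 17.0 and 16.0 CPM in the control and 25.9, 27.6 and 26.9 CPM with CBX1, or log2 0.76 (standard error 0.12, adjusted p = 0.000642), which lies just over the threshold. The CBX1_W42A libraries, at 17.6, 26.1 and 21.9 CPM, spanned the gap between those groups. The call of GMDS-AS1 was lost without control replicate 1 (log2 0.72) or CBX1 replicate 2 (log2 0.73).

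The other 7 leading genes ranged from 2.901 kb (AC087491.2, chromosome 17) to 196.2 kb (RP11-222A11.1, chromosome 10). In order of adjusted p, the log2 fold changes with CBX1 were 1.14 for RP13-137A17.4, 1.76 for RP11-885B4.1, 0.99 for AC159540.1, 2.75 for RP11-396B14.2, 0.78 for RP11-222A11.1, 1.71 for AC087491.2 and 1.89 for RP11-774O3.3. RP11-222A11.1 was under the threshold without control replicate 1 (log2 0.67) or CBX1 replicate 3 (log2 0.73). AC087491.2 had 14, 19 and 15 counts in the control, 54, 45 and 63 with CBX1 and 20, 24 and 15 with CBX1_W42A. Its log2 difference between CBX1 and CBX1_W42A was 1.52 (standard error 0.28, adjusted p = 0.00552), while that between CBX1_W42A and the control was 0.16 (standard error 0.38, adjusted p = 0.859).

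The 2 genes called lower with CBX1 were both short and scarce. RP13-238F13.5, 0.537 kb on chromosome 10, had 19, 13 and 12 counts in the control, 6, 5 and 4 with CBX1 and 17, 25 and 11 with CBX1_W42A. Its log2 fold change with CBX1 was -1.54 (standard error 0.49, adjusted p = 0.0354). RP11-686O6.2, 0.673 kb on chromosome 2, had 17, 18 and 13 counts in the control and 2, 9 and 5 with CBX1, with -1.59 (standard error 0.52, adjusted p = 0.0396). DESeq2 called neither of them, and 0.276% of all genes lower. RP13-238F13.5 lost its call without any 1 of the 6 libraries, and RP11-686O6.2 without any 1 other than CBX1 replicate 2.

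**Figure D5:**
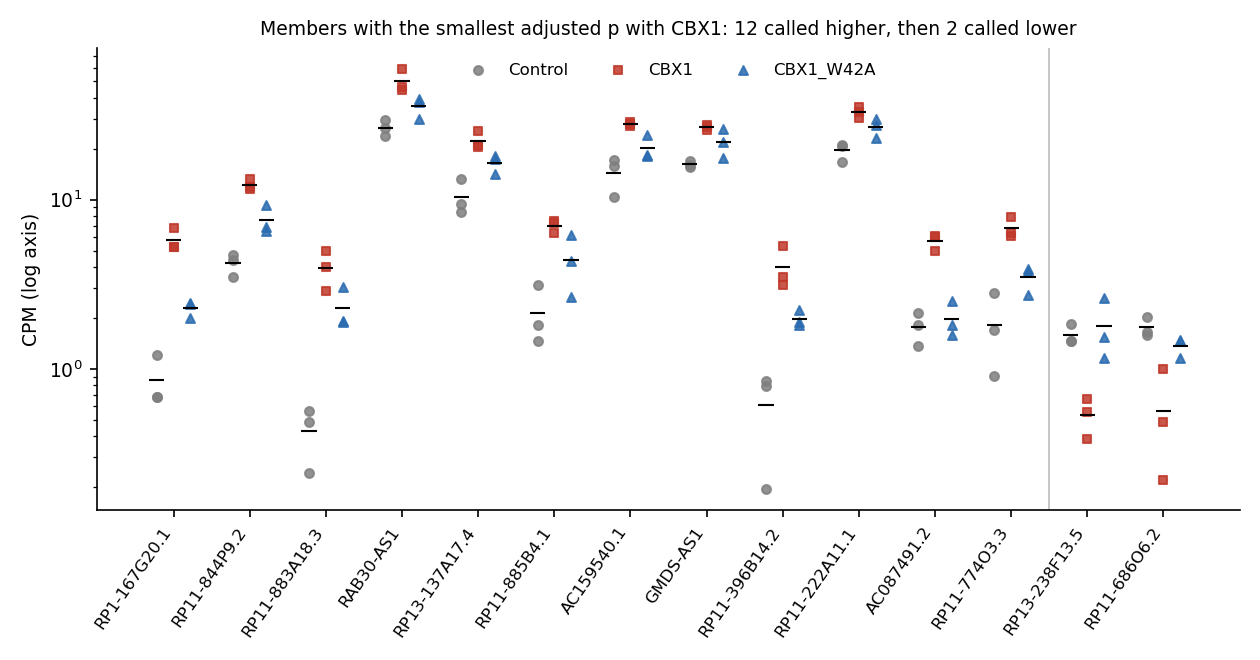
CPM on a log axis in each library for the 12 genes called higher and the 2 called lower with CBX1 that have the smallest adjusted p, with group means as black lines. In the first 12 all CBX1 points lie above all control points, and in the last 2 all lie below.

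Where a gene lies relative to coding genes was read from the coordinates in the count table. The 2196 members over 100 kb from any coding gene summed to 339.6 ± 28.3 CPM in the control, 553.2 ± 10.9 CPM with CBX1 and 437.4 ± 32.7 CPM with CBX1_W42A (SD, n = 3 each), a ratio of 1.63 for CBX1. Relative to the other members of the same library, they stood at 0.0896, 0.105 and 0.1 in the control, 0.127, 0.122 and 0.125 with CBX1 and 0.108, 0.114 and 0.0981 with CBX1_W42A. The CBX1 libraries were above both other groups (exact two-sided permutation p = 0.1 each), and CBX1_W42A and control overlapped (exact two-sided permutation p = 0.3). Their gain per kb with CBX1, 0.00231 CPM, was again close to that of the olfactory receptor genes, which rests on few counts.

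The 462 members that start within 2 kb of a coding gene's start on the opposite strand had a ratio of 1.32 for CBX1 and 1.25 for CBX1_W42A against control, and 35 of 254 tested were called higher with CBX1. The share called, to be read beside this and the next counts, was 16.0% of all tested members and 7.06% of all genes. For the 591 members that start within 10 kb downstream of a coding gene on their own strand the ratios were 1.30 and 1.14, with 33 of 234 called. Of the coding genes upstream of those 33, 31 were tested and 2 called higher. For all 234 tested members of this class, 227 upstream coding genes were tested and 8 called higher. For the 105 members within 50 kb of a numbered ZNF gene, a name given to genes of zinc finger proteins, the ratios were 1.29 and 1.22, with 4 of 40 called.

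The called genes were compared with the rest in sequence as well. The median GC content of the span was 42.6% in the 188 called and 44.5% in the 982 genes not called, and the median promoter window held 6.5 and 8 CG. Exons, where newer annotation gave them, filled a median of 7.19% of the span of called genes and 25.4% of the others. The median exon length was 2.69 kb in called genes and 2.07 kb in the others, and the median span 29.4 and 7.12 kb. The exon share is therefore not separate from span. With LINC numbers, 24 of 103 tested genes were called (23.3%, beside 23.1% of all genes with such names), with clone names 155 of 982 (15.8%, beside 14.2%), and with other symbols 9 of 87 (10.3%, beside 5.17%). Of 52 members that newer annotation lists as protein coding, 26 were tested and 4 called higher (15.4%, beside 4.66% of 14142 tested genes of that newer type), all of them named below.

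The genes with the most counts were mostly not called. LINC00657, known as NORAD, an abundant RNA that binds PUMILIO proteins in the cytoplasm, had the most, with 236, 197 and 204 CPM in the control, 162, 185 and 191 CPM with CBX1 and 197, 182 and 195 CPM with CBX1_W42A. Its log2 fold change with CBX1 was -0.22 (standard error 0.10, adjusted p = 0.124). CROCCP2 had 129 ± 7.09 CPM in the control and 134 ± 13.5 CPM with CBX1 (SD, n = 3 each), and CASC7 74.4 ± 4.93 and 87.1 ± 2.31 CPM, with adjusted p of 0.569 and 0.0655. CTD-2314B22.3 (0.27), RP11-611L7.1 (0.18) and C11orf95 (-0.02) also had log2 fold changes with CBX1 that missed the test. SRP14-AS1 reached log2 0.73 (standard error 0.20, adjusted p = 0.0175) with wide spread between replicates, from 42.4 to 73.6 CPM in the control and from 64.4 to 115 CPM with CBX1. LL22NC03-2H8.5 had 38.7 ± 3.91 CPM in the control, 54.7 ± 3.32 CPM with CBX1 and 60.9 ± 16.2 CPM with CBX1_W42A (SD, n = 3 each). Its log2 fold changes of 0.52 (adjusted p = 0.00298) and 0.65 (adjusted p = 0.0321) were under the 0.75 needed for a call. CROCCP2, CTD-2314B22.3, LINC00202-1 and FAM157A belong to families of similar copies, so their counts are uncertain.

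Per kb of span the densest genes were short. RP11-611L7.1 (1.569 kb) had 43.0 and LINC00657 36.4 CPM per kb on average over the 9 libraries. AC005606.15 (19.6), RP13-516M14.1 (19.2), LL22NC03-2H8.5 (15.7) and RP11-343N15.5 (15.7 CPM per kb) came next. None of these 6 was called in any comparison. The longest genes with a mean of 20 counts or more were LINC00669 (593.4 kb), LINC00478 (556.9 kb), RP11-526A4.1 (544.2 kb), AL163953.3 (518.2 kb) and LINC00856 (426.2 kb).

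LINC00669 (MIR924HG in newer annotation), on chromosome 18, had 30.0, 43.2 and 40.0 CPM in the control, 66.6, 53.1 and 58.1 CPM with CBX1 and 46.0, 48.7 and 35.7 CPM with CBX1_W42A. CBX1 was above both other groups, and its log2 fold change over the control, 0.68 (standard error 0.13, adjusted p = 0.00217), was under the threshold for a call. LINC00856 on chromosome 10 had 1.75 ± 0.553 CPM in the control and 6.21 ± 2.71 CPM with CBX1, log2 1.84 (standard error 0.34, adjusted p = 0.00176). RP11-526A4.1 (IQCM) on chromosome 4, one of the genes now listed as coding, had 2.65 ± 0.773 and 6.18 ± 0.605 CPM (SD, n = 3 each), log2 1.26 (standard error 0.26, adjusted p = 0.00339).

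Among lincRNAs with a described function, 17 were members, 11 were tested against the control with CBX1 and 2 were called higher, where 7.06% of all genes were called, with a median log2 fold change of -0.08 beside 0.03 for all genes tested. LINC01021 (PURPL), which is induced by p53, had 2, 3 and 1 counts in the control, 18, 16 and 15 with CBX1 and 4, 6 and 2 with CBX1_W42A. The CBX1 libraries stood apart from both other groups, with log2 2.94 over the control (standard error 0.59, adjusted p = 0.00270) and log2 2.08 over CBX1_W42A (standard error 0.54, adjusted p = 0.0433). The difference from CBX1_W42A lost its call without any 1 of the 3 CBX1 libraries (adjusted p 0.0834 to 0.188) and without CBX1_W42A replicate 1 or 3 (0.1 and 0.137). LINC00461, an RNA of brain and neural cells, had 0.839 ± 0.267 CPM in the control, 2.52 ± 0.277 CPM with CBX1 and 2.50 ± 1.07 CPM with CBX1_W42A (SD, n = 3 each), and was called with CBX1 (log2 1.59, standard error 0.41, adjusted p = 0.0119). CRNDE and EPB41L4A-AS1, at 31.7 ± 1.69 and 34.8 ± 3.89 CPM in the control, had log2 fold changes of -0.09 and -0.08 that missed the test. CASC9, first described in esophageal cancer, spans 101.3 kb on chromosome 8 and had 12.6, 17.7 and 11.3 CPM in the control, 7.78, 8.65 and 10.1 CPM with CBX1 and 13.6, 14.5 and 9.31 CPM with CBX1_W42A. Every CBX1 library lay below every control library, but at -0.61 on the log2 scale (standard error 0.19, adjusted p = 0.0301) it was not called.

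Host genes of microRNAs numbered 13, of which 7 were tested and 1, MIR4500HG on chromosome 13, was called higher with CBX1, where 7.06% of all genes were. It had 10, 18 and 14 counts in the control, 49, 34 and 33 with CBX1 and 37, 26 and 16 with CBX1_W42A (log2 1.43 with CBX1, standard error 0.35, adjusted p = 0.00896). Without CBX1 replicate 1 the adjusted p was 0.0548. MIR4435-1HG, the most abundant of them, had 38.1 ± 7.97 and 45.6 ± 6.33 CPM. The structured RNAs were near the lower end of what these polyadenylated libraries can show. RMRP, the RNA of the RNase MRP complex, had 4 to 6 counts in the control and 6 to 19 with CBX1 (adjusted p = 0.0658), and TERC, the telomerase RNA, had 0 to 4 counts in any library and was not tested.

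Beside RP11-526A4.1, the genes now listed as coding that were called higher with CBX1 were LINC00176 (C20orf204), C20orf203 and LINC00959 (C10orf143), with log2 fold changes of 1.21, 1.59 and 0.84. The call of C20orf203 was lost without control replicate 2 or CBX1 replicate 3, and that of LINC00959 without control replicate 2 or CBX1 replicate 1. LINC00176 had 2.17 ± 0.605 CPM in the control, 4.94 ± 0.767 CPM with CBX1 and 2.87 ± 0.908 CPM with CBX1_W42A (SD, n = 3 each). Genes of known small proteins were not called, with log2 fold changes of -0.57 for LINC00116 (mitoregulin) and 0.50 for LINC00493 (SMIM26). The 52 genes of this list had a median log2 fold change of 0.54 over the 26 tested.

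Against the control, few of these genes were called with CBX1_W42A. Of 1141 tested, 17 were called higher (1.49%), beside 0.974% of all 18680 genes (DESeq2 14, and 1.01% of all genes), and 0 were called lower, beside 0.0214%. DESeq2 also called 0 lower, and 7 were lower at an unadjusted p below 0.05 in the edgeR test. Every mutant library lay above every control library for 232 genes and below for 29, compared with 12% and 12.5% of all genes. Of the 17, 12 were also among the 188 called with CBX1, which is 70.6% of the first list and 6.38% of the second. Both lists were drawn against the same 3 control libraries, so they are not independent.

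The number called with the mutant depended on single libraries, as it was between 1 (without control replicate 1) and 6 (without CBX1_W42A replicate 3) when 1 of the 6 was left out. It was 5 without control replicate 2, 3 without control replicate 3, 4 without CBX1_W42A replicate 1 and 2 without CBX1_W42A replicate 2. RP11-112J3.16 on chromosome 9 had 15, 14 and 11 counts in the control, 39, 33 and 47 with CBX1 and 51, 39 and 35 with CBX1_W42A. Its log2 fold changes over the control were 1.54 (standard error 0.30, adjusted p = 0.00253) and 1.5 (standard error 0.32, adjusted p = 0.0212), with 0.01 between the readers. C21orf91-OT1 on chromosome 21 had 0.886 ± 0.422, 3.58 ± 0.579 and 3.15 ± 0.456 CPM in control, CBX1 and CBX1_W42A (SD, n = 3 each). The mutant call of RP11-112J3.16 was lost without control replicate 1 or 3 or CBX1_W42A replicate 1, and that of C21orf91-OT1 without control replicate 2 or 3 or CBX1_W42A replicate 1 or 3.

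RP11-315D16.4 on chromosome 15 was called with the mutant alone, with 5, 4 and 1 counts in the control, 10, 6 and 18 with CBX1 and 17, 22 and 18 with CBX1_W42A. Its log2 fold change was 2.36 with the mutant (adjusted p = 0.0303) and 1.70 with CBX1 (adjusted p = 0.0686), and the difference between the readers was -0.68 with an adjusted p of 0.454. AL592494.5 on chromosome 1 had 4.41 ± 0.860, 9.79 ± 0.377 and 9.03 ± 2.0 CPM in control, CBX1 and CBX1_W42A (SD, n = 3 each). RP11-315D16.4 kept its mutant call only without CBX1_W42A replicate 1, and AL592494.5 only without control replicate 3 or CBX1_W42A replicate 3. RP11-65J21.4, a 10.83 kb gene on chromosome 16 singled out after its values were seen, had 0 counts in all 3 control libraries and 2, 11 and 6 with the mutant. Against a floor of 3 counts over the control group it was at least 6-fold higher. It passed the filter through the mutant libraries alone, so only a higher call was possible. The call (adjusted p = 0.0494) was lost without any 1 of the 3 control libraries (adjusted p 0.1 to 0.142), and without CBX1_W42A replicate 2 or 3 too few counts were left to test it.

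The reader and its mutant were compared directly, without the control. Of 1305 long intergenic genes tested, 11 were higher with CBX1 (0.843%), beside 0.795% of all 19360 genes, and 1 was lower, beside 0.201%. The share of long intergenic genes called higher was thus near that of all genes. Every CBX1 library lay above every mutant library for 187 genes and below for 64, compared with 10.3% and 11% of all genes. DESeq2 called 7 higher, and 0.713% of all genes. Of the 11, 10 (90.9%) were also among the 188 called over the control. Both lists were chosen for high values in the same 3 CBX1 libraries, so this overlap is only a description. The count fell to 2 without CBX1 replicate 1, to 4 without CBX1 replicate 3 and to 6 without CBX1_W42A replicate 3.

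For the 188 genes called with CBX1 over the control, the mutant mean lay between control and CBX1 in 173, above CBX1 in 12 and at or below the control in 3. These genes were chosen by high CBX1 and low control values, so the order is a description. AL035610.2 (LINC01695), 112.6 kb on chromosome 21 had 0, 1 and 0 counts in the control, 13, 9 and 14 with CBX1 and 0 in all 3 mutant libraries. It was at least 12.6-fold higher with CBX1 than a floor of 3 counts over the mutant group (adjusted p = 0.00363). With 0 mutant counts it passed the filter through the CBX1 libraries alone, so only a higher call was possible. AC007879.2, 49.35 kb on chromosome 2 and also singled out after its values were seen, had 6, 8 and 7 counts with CBX1 and 0 in each mutant library, at least 7.42-fold higher by the same floor. It too passed the filter through the CBX1 libraries alone. Its call was lost without CBX1_W42A replicate 1 (adjusted p = 0.0523) or 3 (adjusted p = 0.056), and without any 1 CBX1 library too few counts were left to test it.

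LINC00202-1 on chromosome 10 had 7.25 ± 3.07 CPM in the control, 16.2 ± 2.46 CPM with CBX1 and 8.34 ± 1.09 CPM with CBX1_W42A (SD, n = 3 each), a log2 difference between the readers of 0.95 (standard error 0.18, adjusted p = 0.00561). AC007551.3 (SEPTIN7-DT), which starts 0.316 kb from the coding gene SEPTIN7 of the septin cytoskeleton, had 2.53 ± 1.34, 6.79 ± 0.793 and 2.97 ± 0.102 CPM in the same order and a log2 difference of 1.19 (standard error 0.24, adjusted p = 0.0108). The 1 gene lower with CBX1, RP11-449H11.1 on chromosome 16, had 9.67, 17.0 and 14.5 CPM with CBX1 and 15.9, 27.3 and 26.7 CPM with the mutant. These libraries overlapped, and the log2 difference of -0.76 (standard error 0.20, adjusted p = 0.0454) lay at both thresholds. Without CBX1 replicate 1, LINC00202-1 (adjusted p = 0.0557) and AC007551.3 (0.0633) lost their calls, and AC007551.3 also without CBX1 replicate 3 (adjusted p = 0.0613). RP11-449H11.1 lost its call without CBX1 replicate 1 or 3 or CBX1_W42A replicate 2 or 3.

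Genes with primers in the study's list were followed in all groups. RP11-222A11.1 had 19.5 ± 2.45 CPM in the control, 32.8 ± 2.39 CPM with CBX1 and 27.0 ± 3.48 CPM with CBX1_W42A (SD, n = 3 each), with all CBX1 libraries on top. RP11-267A15.1 had its highest level with the mutant, at 9.31 ± 1.42, 10.8 ± 0.563 and 13.5 ± 0.992 CPM, but neither reader passed the test against the control (adjusted p = 0.335 with CBX1 and 0.11 with CBX1_W42A). FAM157A had 5.05 ± 1.44, 7.27 ± 2.41 and 7.44 ± 1.64 CPM with overlapping libraries. No exact match of either FAM157A primer was found in the span of that gene in GRCh37. The forward primer of LINC00669 had none in its gene's span either. AC004158.2, which was called with CBX1, reached 10.2, 11.2 and 14.4 CPM with the mutant, where its log2 fold change over the control was 0.65 (standard error 0.21, adjusted p = 0.0937). Its CBX1 call was lost without control replicate 1 (log2 0.71).

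At the lower end of abundance the groups differed in which genes had counts at all. Counts in all 3 CBX1 libraries and in none of the control libraries were found for 74 genes, and the reverse for 5. These were 2.30% and 0.156% of the 3212 members with a count in either group, beside 1.02% and 0.0957% of all 28215 genes with one. With CBX1_W42A in place of CBX1 the numbers were 39 and 8, or 1.27% and 0.260% of 3082 members, beside 0.693% and 0.104% of 27853 genes. Between CBX1 and CBX1_W42A they were 24 and 11, or 0.716% and 0.328% of 3351 members, beside 0.377% and 0.177% of 28880 genes. These shares were not matched on abundance. With 0 counts in 3 libraries, a level of up to 3 counts over the group cannot be told from absence.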

How the data were processed

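Chrom-seq RNA from 9 HEK293T libraries was read from 1 table of counts. Per the labels and the study's methods, the authors trimmed reads with fastp 0.23.1, aligned them to hg19 with HISAT2 2.1.0 and deposited raw counts per gene from featureCounts 2.0.1 with GENCODE 19. The spans and the values show that whole genes were counted, introns included, on the gene's strand, so reads shared by genes of one strand were not counted. All per-sample columns were used, 0 being left out. A table of promoters and exons was taken from GRCh37 with GENCODE 44 lifted to it.

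Genes with over 18 counts in the 6 libraries of a comparison were tested with edgeR 4.0.16 (TMM factors, quasi-likelihood test, Benjamini-Hochberg adjustment over all genes tested) in R 4.3.3, with the fit limited to the 2 groups compared. DESeq2 1.42.0 was an alternative. CPM used TMM factors over the 9 libraries. Sums and ratios were compared by exact permutation. Scripts were tested on simulated data. Counts from 8379542 to 11082852 per library set the precision, and floors of 3 counts cover counting error only.

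Members, lists and tests were chosen with earlier results of these data known. Named genes were the 12 higher and 4 lower with the smallest adjusted p for CBX1 against control, 5 and 3 for CBX1_W42A against control and 5 and 4 for CBX1 against CBX1_W42A, where higher genes needed groups that did not overlap. To these were added the 8 genes with the most counts, the 6 densest per kb, the 5 longest, those with primers and the lists of known roles, microRNA hosts, structured RNAs and small proteins. The level in olfactory receptor genes and the sum of chromosome 20 without LINC00657 were added after the data were seen. Alternatives were other scalings, filters, fits, fold thresholds, a replicate block and leaving out each library.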

Additional observations from a re-analysis of the deposited data

How the results depend on the processing

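The ratio of summed CPM kept its direction under every scaling, membership and left-out library tried, at 1.28 to 1.42 for CBX1 against control, 1.18 to 1.26 for CBX1_W42A against control and 1.08 to 1.12 between the readers. Counts of calls were less stable, and the cause was not tested. For CBX1 against control, 188 genes called higher became 80 with at least 10 counts in every library, 18 in the test above log2 0.75 and 124 to 171 with 1 library left out. The 80 were of 383 members tested, beside 838 of 14345 genes. The 18 were of 1172 members, beside 170 of 18837 genes. The 2 called lower became 0 with DESeq2, with 10 counts and in the test above log2 0.75, 1 with upper-quartile factors or library size alone, and 0 to 1 with 1 library left out. For CBX1_W42A against control, 17 called higher became 38 without a filter, 8 with 10 counts, 30 with all 9 libraries in 1 fit, 0 in the test above log2 0.75 and 1 to 6 with 1 library left out. The 38 were of 3082 members tested, beside 338 of 27853 genes. The 8 were of 388 members, beside 134 of 14385 genes. Between the readers, 11 called higher became 7 with DESeq2, 23 without a filter, 7 at a minimum log2 of 1, 0 in the test above log2 0.75 and 2 to 15 with 1 library left out. The 23 were of 3351 members tested, beside 244 of 28880 genes. The 1 called lower became 3 without a filter, 0 with upper-quartile factors, library size alone, filterByExpr, 10 counts, all 9 libraries, a minimum log2 of 1 or the test above log2 0.75, and 0 to 1 with 1 library left out.

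With the replicate number as a replicate block, 137, 16 and 24 genes were called higher in the 3 comparisons and 0, 0 and 2 lower. The correlation of deviations of same-numbered libraries was -0.209 to 0.044 between CBX1 and control and -0.104 to 0.135 between CBX1_W42A and control. Between the readers it was 0.0863 to 0.154, against -0.185 to 0.0775 for other numbers, and each of these 6 libraries correlated best with its own number, a hint from the data and not from the design. As 1 pair lay under 0.1 and no label gives a shared batch, the numbers were not taken as pairs.

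With at least 10 counts in every library, the median log2 fold change with CBX1 by rising span was 0.22, 0.29, 0.51, 0.53 and 0.73, in place of 0.43, 0.47, 0.79, 0.82 and 1.16. With abundance taken from CBX1_W42A alone, the medians of the 4 scarcest classes were 1.07, 0.74, 0.59 and 0.49, in place of 0.99, 0.80, 0.57 and 0.54. Within 50 kb downstream of coding genes 74 of 483 tested members were called (15.3%), in place of 33 of 234 within 10 kb (14.1%). Both shares were near the 16.0% of all tested members, where 7.06% of all genes were called. The sign turned for 3 genes that were not called. The log2 fold change of C11orf95 was -0.02, and 0.06 with upper-quartile factors, 0.07 with library size, 0.00 with filterByExpr, 0.03 with 10 counts and -0.17 to 0.10 with 1 library left out. The ranges with 1 library left out were -0.34 to 0.06 for AC005606.15 and -0.27 to 0.01 for RP11-343N15.5. Of 905 values of named genes under alternatives, 775 kept their direction and their side of the thresholds, 109 lost a call, 11 gained one and 10 changed sign. Of the 14 genes named for CBX1 against control, 7 were called under every alternative in which they were tested. Among these 7, RP1-167G20.1, RP11-883A18.3, RP11-396B14.2 and RP11-774O3.3 had under 10 counts in at least 1 control library. These genes were therefore not tested where 10 counts were asked of every library. At this depth 5487 of 6659 genes were too scarce to test against the control with CBX1.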
